A study of Mus musculus with 68 samples.

Results

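POLE4-KO#3 is 1 of 3 mouse embryonic stem cell (ESC) clones in which *Pole4* was knocked out, and it was compared here with the wild-type clone WT#1. The comparison took 6 of the 12 libraries of the POLE4 experiment (68 libraries were given for the series as a whole), namely 3 of POLE4-KO#3 and 3 of WT#1. Libraries were chosen by line alone, without regard to any measured value. Both lines come from the male E14JU line of 129/Ola background and were grown untreated in serum and LIF, and ribosomal RNA was removed from total RNA before paired-end sequencing. The study describes the 3 libraries of a line as biological replicates. Both lines are 1 clone each, and within this comparison the effect of the knockout and differences between clones cannot be told apart, and the design of the *Pole4* edit is not given in the sources used here. WT#1 libraries carry the column numbers 6, 7 and 8 and are named by them, while POLE4-KO#3 libraries are 1, 2 and 3.

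POLE4 is a small histone-fold subunit of DNA polymerase epsilon, the enzyme that extends the leading strand during replication. With its partner POLE3 it binds histones H3-H4 and helps pass the old, modified histones of the parental chromatin to the leading daughter strand. MCM2, a subunit of the replicative helicase, does the same for the lagging strand, and the MCM2-2A mutation disrupts its histone binding. The POLE4-KO clones were made to ask whether loss of the opposite recycling arm is followed by expression changes like those of MCM2-2A cells. Silencing through H3K9me3 and H3K27me3 is carried on parental histones, and in ESCs it holds down retrotransposons, germline genes and developmental regulators.

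Counts summed to between 20477221 and 26098796 per library in WT#1 and to between 18369196 and 26975105 in POLE4-KO#3. Repeats took 3.58% to 4.16% of the counts in WT#1 and 4.17% to 4.88% in POLE4-KO#3. The ribosomal RNA-like transcript Gm26917 took 10.2% to 11.7% and 13.4% to 16.5%, and mitochondrial genes took 3.22% to 3.96% and 4.43% to 5.41%. None of these 3 shares overlapped between the lines. Levels below are in CPM, counts relative to the total count of the library, scaled between libraries by TMM factors from gene counts. All changes are log2 fold changes from edgeR's quasi-likelihood test over all 12 libraries, with Benjamini-Hochberg adjusted p-values, and a gene was called when the adjusted p was below 0.01 and the change exceeded 0.58 in size.

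*Pole4* (ENSMUSG00000030042, chr6:82618992-82705365 on the minus strand of GRCm38) fell to a low residue in POLE4-KO#3. It stood at 56.2, 61.3 and 60.6 CPM in WT#1 libraries 6, 7 and 8 and at 3.33, 2.97 and 4.85 CPM in POLE4-KO#3 libraries 1, 2 and 3. The groups were far apart, with a log2 fold change of -3.97 ± 0.15 (SE, n = 3 per line; edgeR quasi-likelihood test, adjusted p = 2.77e-10). A residue of 55, 65 and 131 reads was counted in the knockout libraries. The mean was 3.72 CPM in POLE4-KO#3, and the other knockout clones were low too, at 3.21 CPM (POLE4-KO#1) and 7.30 CPM (POLE4-KO#2). The partners were not called: *Pole*, the catalytic subunit, differed by -0.16 on the log2 scale, *Pole2* by -0.34 and the histone-fold partner *Pole3* by -0.24. Of 84 genes tested within 5 Mb of *Pole4*, whose median change was 0.01, 2 were called, *Dysf* (0.84) and *Rtkn* (0.99). Of all genes tested, 2.98% were called. *Dysf* was called in all 6 fits that left out 1 library, and *Rtkn* in 2. Both lines expressed the defining markers of ESCs. *Nanog* stood at 274, 206 and 289 CPM against 255, 200 and 285 CPM, and none of *Nanog*, *Pou5f1*, *Sox2*, *Zfp42*, *Esrrb*, *Tdgf1* and *Dppa5a* was called, the lowest being *Zfp42* at -0.49.

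**Figure D1:**
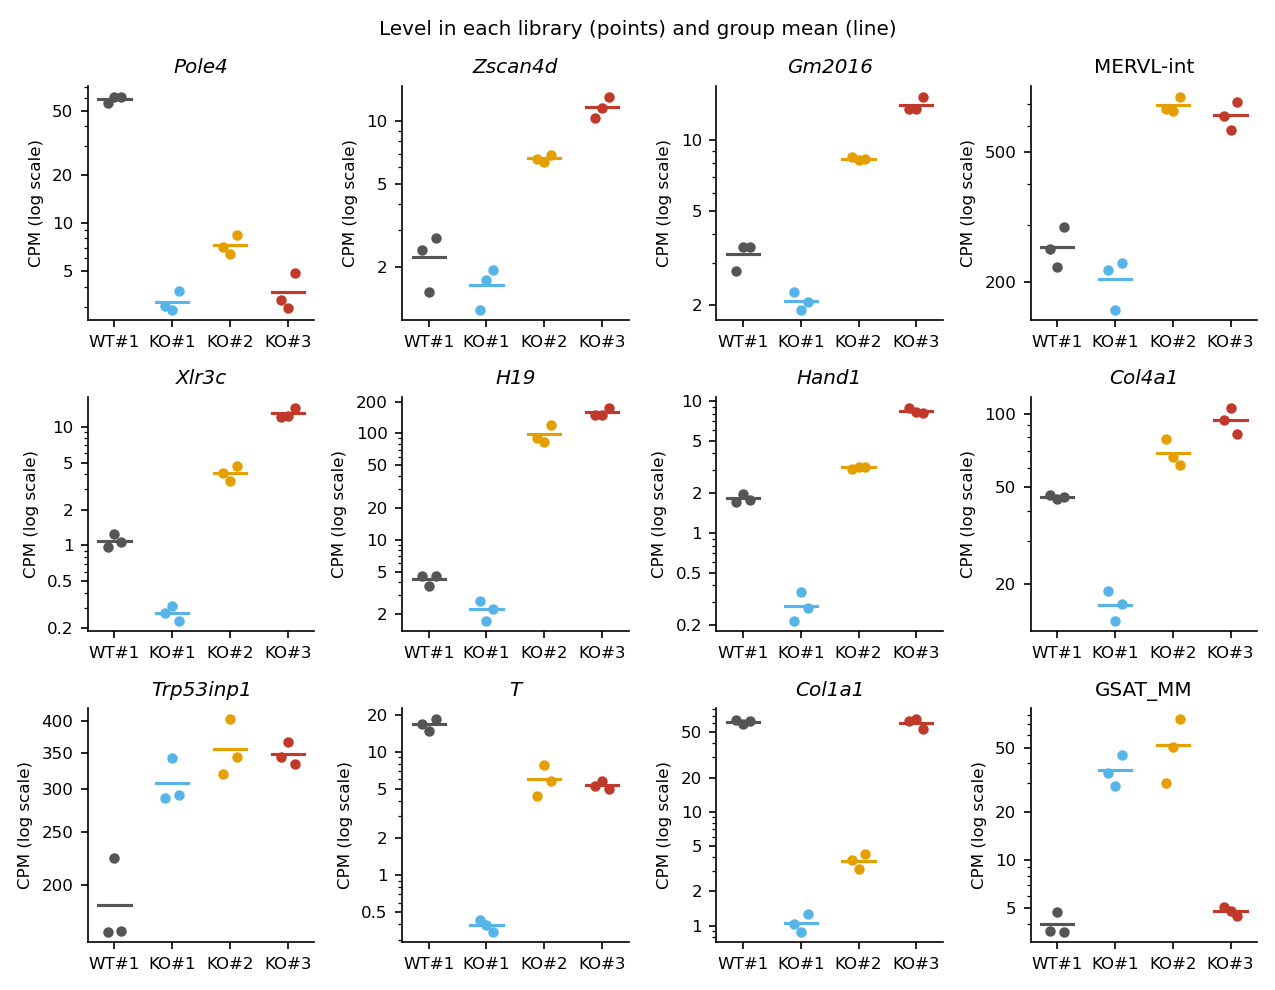
CPM (log axis) of 10 genes and 2 repeats in each library (points) with the mean of each line (bars), for WT#1 and the 3 POLE4-KO clones. Pole4 fell in all knockout clones, Zscan4d and MERVL-int stood high in POLE4-KO#3 and POLE4-KO#2 and not in POLE4-KO#1, and Col1a1 and GSAT_MM in POLE4-KO#3 stood close to WT#1.

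More genes rose than fell in POLE4-KO#3. Of 16864 genes tested, 431 were called higher (2.56%) and 72 lower (0.427%; 2.98% in all), and the median change of all genes was zero on the log2 scale. All 431 and all 72 had libraries that did not overlap between the lines, as did 17.3% of tested genes in the upward and 16.9% in the downward direction. Protein-coding genes supplied 391 of the rises and 65 of the falls. The calls depended on the number of libraries: 245 of these genes were called in each of the 6 fits that left out 1 library. The total of called genes was 332 without WT#1 library 6 and 317 without WT#1 library 8. No gene changed sign in those fits.

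**Figure D2:**
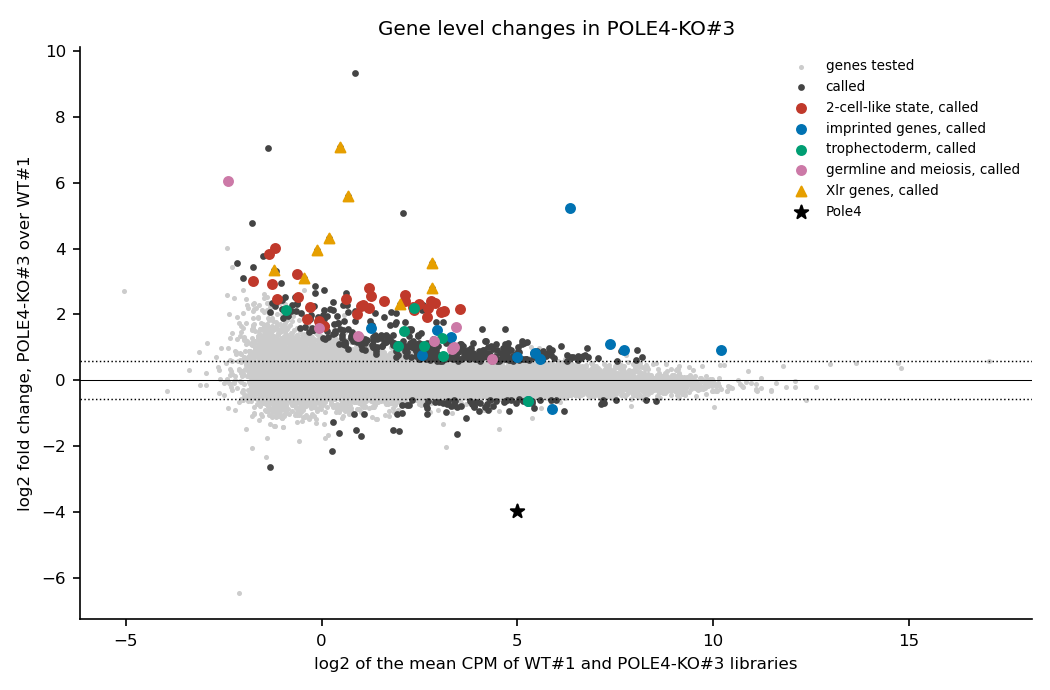
Log2 fold change of POLE4-KO#3 over WT#1 for the 16864 genes tested against the log2 of the mean CPM of both lines; dotted lines mark 0.58 in either direction and colours mark called members of 4 lists and the Xlr genes. Called 2-cell genes lie between 1.65 and 4.02, H19 lies at 5.23, and Pole4 is the star at -3.97.

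The clearest group was the genes of the 2-cell-like state. 2-cell-like cells are a rare fraction of an ESC culture that switches on transcripts of the 2-cell embryo, among them the zinc finger proteins of the Zscan4 cluster, which act on telomeres, and the endogenous retrovirus MERVL. Of 40 tested members of a 48-gene list, 31 were called higher and none lower, against 2.56% of all genes, and their median log2 change was 2.23 against a median of zero. 37 of the 40 had an unadjusted p below 0.05, and DESeq2 also called 31 higher and 0 lower. In bulk RNA a larger number of 2-cell-like cells and more of the RNA per such cell cannot be told apart.

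*Zscan4d* stood at 2.40, 1.52 and 2.75 CPM in WT#1 and at 10.3, 11.6 and 13.1 CPM in POLE4-KO#3. Every knockout library was above every wild-type library, and the log2 change was 2.42 ± 0.19 (SE; edgeR quasi-likelihood test, adjusted p = 9.63e-07). *Zscan4c* rose from 2.50, 2.24 and 3.37 to 10.95, 7.71 and 11.9 CPM (1.92 ± 0.25), and *Zscan4f* from 1.67, 1.67 and 2.46 to 8.35, 6.75 and 10.1 CPM (2.13 ± 0.19). Within chr7:10794242-11614112 all 9 tested genes were Zscan4 genes or pseudogenes and all 9 were called higher, with a median of 2.24. These copies share most of their sequence, so how counts divide among them is uncertain. The promoters of *Zscan4b* (chr7:10905001-10905300, minus strand) and *Zscan4f* (chr7:11397665-11397964, plus strand), 250 bases before and 50 after the start in RefSeq on GRCm38.p6, are shown because these copies changed alike (2.20 and 2.13). They match at 287 of 300 positions (95.7%), and capitals mark the 13 that differ.
Zscan4b: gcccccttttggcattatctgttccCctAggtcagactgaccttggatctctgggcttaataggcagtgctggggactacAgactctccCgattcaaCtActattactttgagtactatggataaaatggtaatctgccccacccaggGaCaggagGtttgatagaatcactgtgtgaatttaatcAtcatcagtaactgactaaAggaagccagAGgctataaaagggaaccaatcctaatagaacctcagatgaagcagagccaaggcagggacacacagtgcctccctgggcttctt
Zscan4f: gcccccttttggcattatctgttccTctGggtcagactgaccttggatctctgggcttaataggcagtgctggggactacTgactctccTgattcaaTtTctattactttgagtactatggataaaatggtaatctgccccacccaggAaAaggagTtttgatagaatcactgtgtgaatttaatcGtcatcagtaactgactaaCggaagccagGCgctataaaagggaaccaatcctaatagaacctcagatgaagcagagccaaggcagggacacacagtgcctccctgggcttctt

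The same held for other 2-cell families that lie in clusters. The Eif1a-like genes encode variants of a translation initiation factor, and 12 of 18 tested genes of their chromosome 12 window were called higher, whereas *Snw1* (-0.22), *Slirp* (-0.04), *Adck1* (-0.03) and *Alkbh1* (0.13), which belong to no such family, were not. *BB287469* of the same window changed by 2.14 and was not called either. *Gm2016* of this cluster rose from 2.79, 3.53 and 3.52 to 13.6, 13.6 and 15.4 CPM (2.11 ± 0.13), and *Gm5662* from 3.87, 3.72 and 5.21 to 19.7, 17.8 and 19.3 CPM (2.15 ± 0.14). The Usp17l genes encode deubiquitinases, and *Usp17le* rose from 1.32, 1.06 and 1.35 to 8.17, 6.94 and 7.52 CPM (2.60 ± 0.16). The tested Trim genes of the same window (*Trim30a* 0.46, *Trim34a* 0.06, *Trim6* 0.18 among them) lie to one side of these genes and were not called. On chromosome 13, 5 of 13 genes of the Tcstv window were called, and *D13Ertd608e* changed by 2.50 without a call. *Tcstv3* had 3 reads in WT#1 against 53 in POLE4-KO#3, a ratio of 18.2 (95% counting interval 5.91 to 91.2), and *Tdpoz3* had 3 against 46, a ratio of 15.8 (5.08 to 79.5). These intervals cover counting error only.

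*Duxf3*, which encodes the DUX factor that activates the 2-cell programme, stood at 0.05, 0.11 and 0.00 CPM in WT#1 and at 0.24, 0.37 and 0.44 CPM in POLE4-KO#3. Its libraries did not overlap, but its change of 2.51 was not called (edgeR quasi-likelihood test, adjusted p = 0.0287). *Zfp352* (1.28, adjusted p = 0.102) and *Dppa2* (0.29, adjusted p = 0.00706), by the same test, were not called either. Of the 31 called genes, 25 were called in every fit that left out 1 library. *Ubtfl1* was called in 2 of these 6 fits, and *Trim43a*, *Gm2022*, *Tmem92*, *Tdpoz4* and *Pramef25* in 1 each.

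Repeat RNA was higher as well. Of 863 subfamilies tested, 70 were called higher (8.11%) and 0 lower (0%), 2 had an unadjusted p below 0.05 in the downward direction, and DESeq2 called 68 higher and 0 lower. The change was broad: 94.4% of subfamilies were above zero, 54.3% had all 3 knockout libraries above all WT#1 libraries, and the median was 0.457 on the log2 scale, with similar medians for LINE-1 (0.457), Alu-type SINEs (0.458), ERVK (0.46), ERVL (0.468) and hAT-Charlie DNA transposons (0.474). Among classes of genes the medians differed, at 0.409 for 432 unclassified TEC transcripts, 0.224 for 252 antisense transcripts, 0.191 for 383 lincRNAs, -0.012 for coding genes and -0.157 for 711 processed pseudogenes. A list of nuclear and RNA quality transcripts summed to 159074 to 195584 CPM in WT#1 and to 196883 to 284298 CPM in POLE4-KO#3, with 2 of its 16 genes called higher; its part in the repeat rise was not tested. Without Gm26917, Gm42418 and the mitochondrial genes, a setting chosen after seeing the data, 70 subfamilies were again called. Fits without WT#1 library 7, WT#1 library 8, POLE4-KO#3 library 1 or POLE4-KO#3 library 3 called 16, 30, 19 and 20 subfamilies in that order. Of the 70, these fits still called 16, 25, 18 and 17, and 13 were called in all 6 fits that left out 1 library.

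MERVL stood well above this broad shift. MERVL-int, its internal region, was at 254, 222 and 294 CPM in WT#1 and at 645, 585 and 713 CPM in POLE4-KO#3, a log2 change of 1.34 ± 0.12 (SE; edgeR quasi-likelihood test, adjusted p = 2.79e-06). Its promoter repeat MT2_Mm rose from 79.3, 72.6 and 88.3 to 184, 166 and 189 CPM (1.17 ± 0.09). The ERVK element RLTR45-int rose from 26.6, 19.8 and 26.5 to 104, 70.4 and 98.3 CPM (1.91 ± 0.13). None of these groups overlapped. IAPEy-int, an IAP-related element, rose from 0.29, 0.38 and 0.24 to 2.12, 3.19 and 2.56 CPM (3.07 ± 0.34), and MMERVK10C-int from 36.4, 35.4 and 38.7 to 84.6, 65.4 and 79.6 CPM (1.05 ± 0.10).

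When repeats were scaled by TMM factors of their own, a setting chosen after seeing the data that removes the common shift, 10 subfamilies were called, 6 higher and 4 lower. IAPEy-int (2.65), RLTR45-int (1.48), ERVB4_2-I_MM-int (1.09), MERVL-int (0.91), MT2_Mm (0.74) and MMERVK10C-int (0.62) were the 6. MLT1J2 (-0.73), ETnERV3-int (-0.64), RLTR19-int (-0.63) and Tigger12 (-0.63) were then lower. Of the wider families, 3 of 22 IAP elements, 1 of 9 ETn and MusD elements and 0 of 6 young L1Md elements were called with gene scaling, against 8.11% of all subfamilies, L1Md having a median of 0.314 and 3 members at an unadjusted p below 0.05. MMERGLN-int, an ERV1 element, changed by 0.37 and was not called. Major satellite GSAT_MM, the repeat of pericentromeric heterochromatin, stood at 3.63, 4.70 and 3.57 CPM in WT#1 and at 5.08, 4.79 and 4.48 CPM in POLE4-KO#3. These ranges overlapped and the change of 0.25 was not called (edgeR quasi-likelihood test, adjusted p = 0.511).

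**Figure D3:**
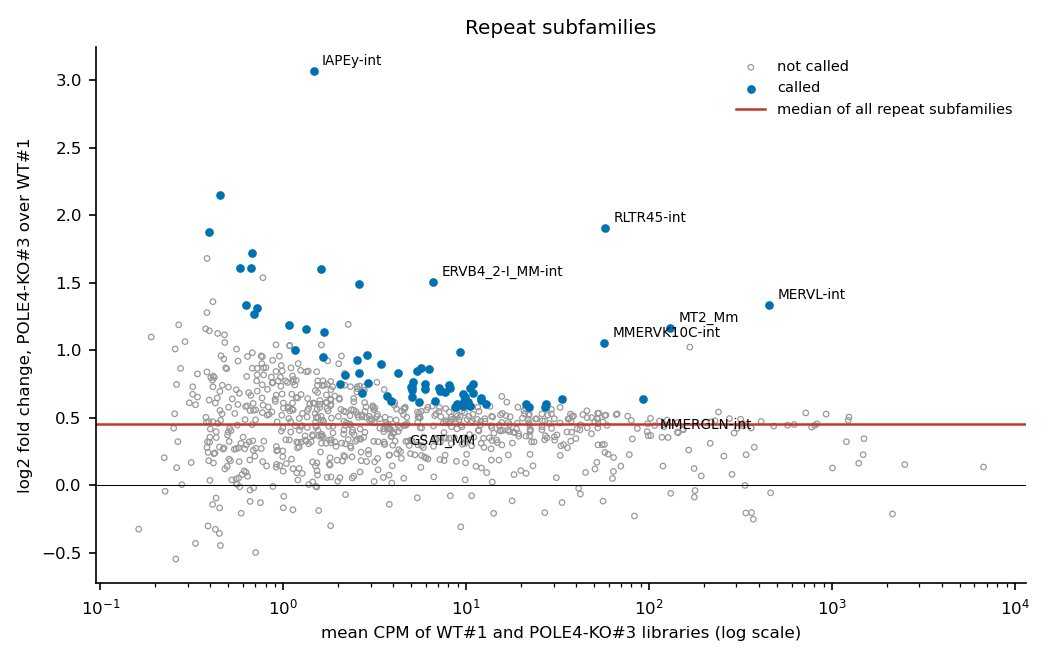
Log2 fold change of POLE4-KO#3 over WT#1 for 863 repeat subfamilies against their mean CPM in both lines (log axis), with the median of all subfamilies, 0.457, as a red line. MERVL-int, MT2_Mm, RLTR45-int, IAPEy-int and MMERVK10C-int lie above the band that holds most repeats, and GSAT_MM and MMERGLN-int lie within it.

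Imprinted genes, which are normally read from a single parental allele, held the largest change among abundant transcripts. Of 38 tested imprinted genes 11 were called higher and 2 lower, against 2.56% and 0.427% of all genes, with a median of 0.33. *H19* (chr7:142575529-142578143), a maternally expressed noncoding RNA, stood at 4.51, 3.64 and 4.58 CPM in WT#1 and at 149, 150 and 175 CPM in POLE4-KO#3. The lines were separated by a log2 change of 5.23 ± 0.16 (SE; edgeR quasi-likelihood test, adjusted p = 1.02e-11). *Igf2*, the reciprocally imprinted growth factor next to it, rose as well, from 22.7, 26.4 and 22.9 to 36.7, 40.7 and 40.4 CPM (0.71 ± 0.12), so both neighbours went up. The hairpin of *Mir675* (chr7:142577064-142577147), which lies within *H19*, followed it with 5.07 ± 0.25. Its counts are fragments of the host RNA or its precursor and are no measure of the mature miRNAs, whose RefSeq sequences are shown with the seed (bases 2 to 8) in capitals.
mmu-miR-675-5p: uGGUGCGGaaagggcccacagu
mmu-miR-675-3p: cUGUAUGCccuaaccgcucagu

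Paternally expressed genes supplied most of the other rises. *Mest*, an alpha/beta hydrolase gene, rose from 103, 109 and 106 to 220, 234 and 227 CPM (1.10 ± 0.06), and *Peg10*, a gene of retrotransposon origin needed in the placenta, from 803, 764 and 881 to 1485, 1425 and 1698 CPM (0.91 ± 0.12). *Peg3*, a zinc finger gene, rose by 0.91, *Plagl1*, a regulator of other imprinted genes, by 1.31, *Nnat* by 1.52 and *Peg13* by 1.60 on the log2 scale. The falls were *Grb10*, an inhibitor of growth factor receptors, at 81.3, 66.9 and 82.8 CPM against 42.1, 41.8 and 42.4 CPM (-0.87 ± 0.10), and *Phlda2*, which limits placental growth, at -0.63. No library of one line overlapped the other for any of these genes. *Kcnq1ot1* (0.83) and *Meg3* (0.65), noncoding RNAs that are themselves imprinted, also rose; the counting's use of strand is not given in the sources used here, so *Kcnq1ot1* and the genes it overlaps cannot be told apart.

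A cluster on the X chromosome stood next. The Xlr3, Xlr4 and Xlr5 genes encode relatives of the synaptonemal complex protein SYCP3, and some are imprinted in brain. All 9 tested Xlr genes between chrX:73074345 and chrX:73495933 were called higher, and 11 of the 21 tested genes of the window around them. *Xlr3c* rose from 0.98, 1.25 and 1.06 to 12.2, 12.4 and 14.5 CPM (3.56 ± 0.17), and *Xlr3a* from 1.52, 1.78 and 1.93 to 11.3, 13.1 and 12.4 CPM (2.81 ± 0.16). *Xlr5b* had 1 read in WT#1 and 182 in POLE4-KO#3, a ratio of 188 (95% counting interval 33.3 to 7.46e+03). Of the other genes of the window *Bgn* (1.35) and *Gm18336* (1.56) were called as well. *Magea4* (1.85) was not called, nor were neighbours such as *Haus7* (-0.26), *Zfp275* (-0.01) and *Cetn2* (-0.19). Here too copies resemble each other, and *Xlr5a* is annotated across *Xlr5c*, so the split among copies is uncertain. The RefSeq promoters of *Xlr5a* and *Xlr5b* share 255 bases without a difference when aligned without gaps, shown once as it stands at *Xlr5b* (chrX:73148591-73148845, plus strand, GRCm38.p6), whereas that of *Xlr5c* matches *Xlr5a* at 34.9% of positions.
Xlr5b: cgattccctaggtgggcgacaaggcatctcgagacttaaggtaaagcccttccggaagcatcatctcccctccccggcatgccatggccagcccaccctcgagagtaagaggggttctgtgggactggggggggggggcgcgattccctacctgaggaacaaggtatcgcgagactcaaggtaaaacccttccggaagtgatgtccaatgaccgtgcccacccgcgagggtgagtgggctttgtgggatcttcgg

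Another rise began from a gene unread in WT#1. *Ccr1l1*, a chemokine receptor-like gene (chr9:123977243-123978408), had no read in the 3 WT#1 libraries and stood at 3.57, 2.65 and 4.59 CPM in POLE4-KO#3. Taking 3 reads over the WT#1 group as the limit that a count of 0 allows, it was at least 81.1-fold higher. Its neighbour *Ccr1* was at least 16.9-fold higher by the same limit, while the other 8 tested genes of the window, *Lztfl1* (0.10) and *Sacm1l* (0.03) among them, were not called.

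Germline genes rose in part. Of 34 tested germline and meiosis genes 8 were called higher, against 2.56% of all genes, and none lower, with a median of 0.48. At an unadjusted p below 0.05, 17 were higher and 4 lower, against 15.1% and 13.4% of all genes, and DESeq2 called 10 higher. *Smc1b*, the meiotic cohesin subunit, rose from 4.95, 4.67 and 6.36 to 18.7, 12.7 and 17.3 CPM (1.61 ± 0.20), and *Dazl*, whose product binds RNA in germ cells, from 6.03, 7.06 and 7.42 to 14.5, 12.96 and 14.1 CPM (1.02 ± 0.12). Both groups were fully separated. *Stra8*, which prepares cells for meiosis, rose by 1.58, *Slc25a31* by 1.36, *Gpat2* by 1.2003, *Mael*, of the piRNA pathway, by 0.94 and *Tuba3a* by 0.64. *Asz1*, another piRNA pathway gene, had no read in WT#1 and was at least 8.11-fold higher. *Slc25a31* was called in 2 of the 6 fits that left out a library, *Tuba3a* in 1 and *Stra8* in none.

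In ESCs many germline promoters are repressed through E2F6 and through MGA, which bind the letters TCCCGC and the E-box CACGTG, respectively. The first, searched on both strands, occurred in the 300-base promoters of 5 of the 8 called germline genes (62.5%), in those of 39.7% of tested genes with an entry and of 22% of all genes with one. The E-box occurred in 2 of the 8 (25%), in 11.5% of tested genes and in 8.09% of all genes with an entry. *Mael* (chr1:166238695-166238994, minus strand) and *Slc25a31* (chr3:40708621-40708920, plus strand) are shown because they hold both motifs, marked in capitals, none overlapping another (GCGGGA is TCCCGC on the other strand).
Mael: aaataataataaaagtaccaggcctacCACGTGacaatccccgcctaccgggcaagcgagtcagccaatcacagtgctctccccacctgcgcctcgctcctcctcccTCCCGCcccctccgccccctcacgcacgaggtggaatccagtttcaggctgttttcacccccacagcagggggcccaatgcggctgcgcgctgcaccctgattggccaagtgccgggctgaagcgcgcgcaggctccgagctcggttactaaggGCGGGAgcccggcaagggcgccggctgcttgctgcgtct
Slc25a31: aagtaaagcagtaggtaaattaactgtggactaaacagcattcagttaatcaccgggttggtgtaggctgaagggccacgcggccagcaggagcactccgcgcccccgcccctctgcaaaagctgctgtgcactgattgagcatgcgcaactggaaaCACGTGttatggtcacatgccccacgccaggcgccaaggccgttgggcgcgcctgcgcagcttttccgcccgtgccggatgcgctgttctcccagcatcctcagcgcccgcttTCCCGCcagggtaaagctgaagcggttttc

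Trophectoderm, the outer layer that forms the placenta, was represented by 20 tested genes, of which 7 were called higher and 1, *Phlda2*, lower, against 2.56% and 0.427% of all genes, with a median of 0.31. *Hand1*, a transcription factor of giant cells and heart, stood at 1.71, 1.97 and 1.78 CPM in WT#1 and at 8.89, 8.31 and 8.11 CPM in POLE4-KO#3 (2.20 ± 0.15). *Gata3* rose from 2.65, 1.97 and 2.17 to 5.75, 5.84 and 7.45 CPM (1.502 ± 0.16). *Plac1* (2.14), *Krt7* (1.29), *Esx1* (1.05), *Gata2* (1.03) and *Plet1* (0.75) made up the rest, all with separated libraries. The defining factors *Cdx2* (4.31, 3.26 and 4.92 against 4.17, 3.24 and 3.67 CPM) and *Eomes* (0.14) were not called, and *Elf5* was too low to test. Of the 6 fits without a library, *Phlda2* was called in 5, *Plet1* in 4, *Gata2* in 3, and *Esx1* and *Plac1* in 1 each.

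Primitive endoderm, the extraembryonic layer that lays down basement membrane, had 3 of 24 tested genes called higher, against 2.56% of all genes, and none lower, with a median of 0.39 (0.27 with the stricter filter on counts). 13 of the 24 were higher at an unadjusted p below 0.05, 0 lower, and DESeq2 called 5 higher. *Col4a1*, a basement membrane collagen, rose from 46.2, 44.6 and 45.5 to 93.9, 106 and 82.6 CPM (1.05 ± 0.11), and its divergently transcribed partner *Col4a2* from 22.9, 20.7 and 23.3 to 47.6, 56.1 and 39.1 CPM (1.09 ± 0.14). *Sox7* was the third at 0.93, and it was called in 2 of the 6 fits without a library. *Gata6* (0.98), *Gata4* (0.45) and *Dab2* (0.64), which define the lineage, were not called, and *Sox17* was too low to test.

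The p53 response, transcripts induced by the tumour suppressor p53 under DNA damage and other stress, had 8 of 35 genes called higher, against 2.56% of all genes, and none lower, with a median of 0.42. 21 were higher and 0 lower at an unadjusted p below 0.05, and DESeq2 called 8 higher and 0 lower. *Trp53inp1*, a p53 cofactor, rose from 164, 224 and 164 to 344, 366 and 334 CPM (0.92 ± 0.12), and *Ccng1*, a cyclin, from 201, 255 and 207 to 350, 378 and 345 CPM (0.70 ± 0.09). *Mdm2*, which degrades p53, rose from 93.1, 121 and 93.2 to 159, 168 and 163 CPM (0.67 ± 0.10). WT#1 library 7 was the highest of its group for each of the 3 and still below all knockout libraries. *Trp73* (1.14), *Ddit4l* (1.05), *Perp* (0.77), *Plk2* (0.71) and *Gtse1* (0.58) were also called. *Gtse1*, *Perp* and *Ddit4l* held their calls in 4 of the 6 fits without a library and *Trp73* in 3. *Cdkn1a*, the cell cycle inhibitor, was not called (0.42, edgeR quasi-likelihood test, adjusted p = 0.0442).

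Falls were fewer and smaller. Lineage priming genes, which mark ESCs on their way out of pluripotency, had 4 of 29 members called lower, against 0.427% of all genes, and none higher, with a median of -0.17. *T* (Brachyury), the mesoderm factor, fell from 16.9, 14.8 and 18.5 to 5.26, 5.84 and 5.00 CPM (-1.64 ± 0.17), *Sp5*, a WNT target, from 22.8, 13.5 and 16.7 to 9.74, 7.35 and 6.89 CPM (-1.15 ± 0.22), *Fgf8* by 1.70 and *Lef1* by 0.62 on the log2 scale. *T* held its call in all 6 fits without a library, *Lef1* in 4, *Sp5* in 3 and *Fgf8* in 2. The naive pluripotency list had 1 of 28 called, the maternal factor *Dppa3* (-0.81), which was called in none of these 6 fits. Outside the lists, among genes of at least 1 CPM with separated libraries and no Gm or Rik name, the deepest falls were *Nkx6-3* (-1.61), *Miip* (-1.53), *Samd9l* (-1.52), *AC166172.1* (-1.27), *Ciart* (-1.03) and *Krtcap3* (-1.03). *Nkx6-3* and *Miip* held their calls in all 6 fits without a library, *Samd9l* in 5 and *Ciart* in 2. *AC166172.1* and *Krtcap3* held theirs in 1 each.

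Replication-dependent histone genes all had a change of the same sign. All 70 tested members were below zero, at -1.16 to -0.08 with a median of -0.435, against 50% of all genes, and 61 had an unadjusted p below 0.05, against 13.4% of all genes in that direction. Of the 70, 5 were called lower, against 0.427% of all genes, and DESeq2 called 7. *Hist3h2ba* fell from 35.4, 29.6 and 43.2 to 22.02, 14.6 and 19.9 CPM (-0.94 ± 0.15), and *Hist1h2bh* from 74.7, 69.8 and 84.9 to 56.8, 44.0 and 49.2 CPM (-0.61 ± 0.10). *Hist2h4* (-0.61), *Hist1h1c* (-0.60) and *Hist1h2bm* (-0.59) were called as well. Only *Hist3h2ba* held its call in all 6 fits without a library. *Hist1h2bh* held it in 4, *Hist2h4* in 2, and *Hist1h1c* and *Hist1h2bm* in 1 each. All 25 genes of the amino acid stress response were below zero too, with a median of -0.454. Of these, 1 was called lower, against 0.427% of all genes. It was *Sars*, a tRNA synthetase, at 198, 135 and 190 CPM against 106, 105 and 108 CPM (-0.71 ± 0.16). *Sars* was called in 1 of the 6 fits without a library. WT#1 library 7 was low for this list: *Chac1* stood at 19.9, 0.99 and 22.8 CPM in WT#1 and at 4.72, 1.60 and 4.30 CPM in POLE4-KO#3, which overlap.

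Genes of replication and chromatin upkeep were not called by edgeR's quasi-likelihood test or by DESeq2. This covers 32 replisome genes (11 at an unadjusted p below 0.05), 20 H3-H4 chaperone genes (6), 30 fork repair and checkpoint genes (10), 52 Polycomb and heterochromatin enzymes (21) and 24 cholesterol synthesis genes (2), where 28.4% of all tested genes had such a p. All 11 replisome and all 6 chaperone genes with such a p were lower, against 13.4% of all genes in that direction. Fork repair had 4 higher and 6 lower, the enzymes 7 and 14, and cholesterol synthesis 2 and 0. Below zero were 28 of the 32 replisome genes, as were 8438 of all 16864 genes tested. The members with the smallest p were *Pcna* (-0.24) and *Pold2* (-0.36) of the replisome, the chaperone genes *Hira* (-0.43) and *Cabin1* (-0.32), *Zranb3* (-0.33) and *Rad9a* (-0.32) of fork repair, *Dnmt3b* (-0.44) and *Kdm2b* (0.37) of the enzymes, and *Srebf2* (0.31) and *Hsd17b7* (0.31). A change below the limit of 0.58 could not be called here whatever its p.

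Lists for other cell types and signals held 1 to 3 calls each, to be read against 2.56% of all genes called higher and 0.427% lower. None had more than 38 tested genes, so that 1 call already exceeds these shares. Of 38 Polycomb target regulators 1 was called higher (*Hand1*) and 2 lower (*Nkx6-2*, -0.74, among them), of 18 neural genes 2 higher (*Nefm*, a neurofilament, from 1.96, 2.28 and 2.27 to 9.98, 10.5 and 8.26 CPM, and *Nnat*), and of 20 mesoderm and cardiac genes 2 higher (*Hand1* and *Tbx20*, 0.89) and 1 lower (*T*). The fibroblast markers, summed at 732 to 878 CPM in WT#1 and at 742 to 772 CPM in POLE4-KO#3, had 2 of 14 called higher (*Col5a2* 0.90, *Fbln1* 0.64). The interferon list had *Tap1* higher (0.76) and *Gbp2* lower (-0.69) among 29, glycolysis and hypoxia had *Bnip3* lower (-0.84) among 27, and signalling feedback had *Sp5*, *Lef1* and *Gli1* (-0.61) lower among 26. On the Y chromosome *Kdm5d* was called higher at 0.15 against 0.63 CPM on average, while *Uty* (-0.12), *Ddx3y* (-0.04) and *Eif2s3y* (-0.05) were not called among 7 genes. DESeq2 called no gene of the Y chromosome list. *Kdm5d*, *Nkx6-2* and *Col5a2* were called in none of the 6 fits that left out a library, and *Tap1* in 3. Median changes of the autosomes and X lay between -0.052 and 0.074.

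**Figure D4:**
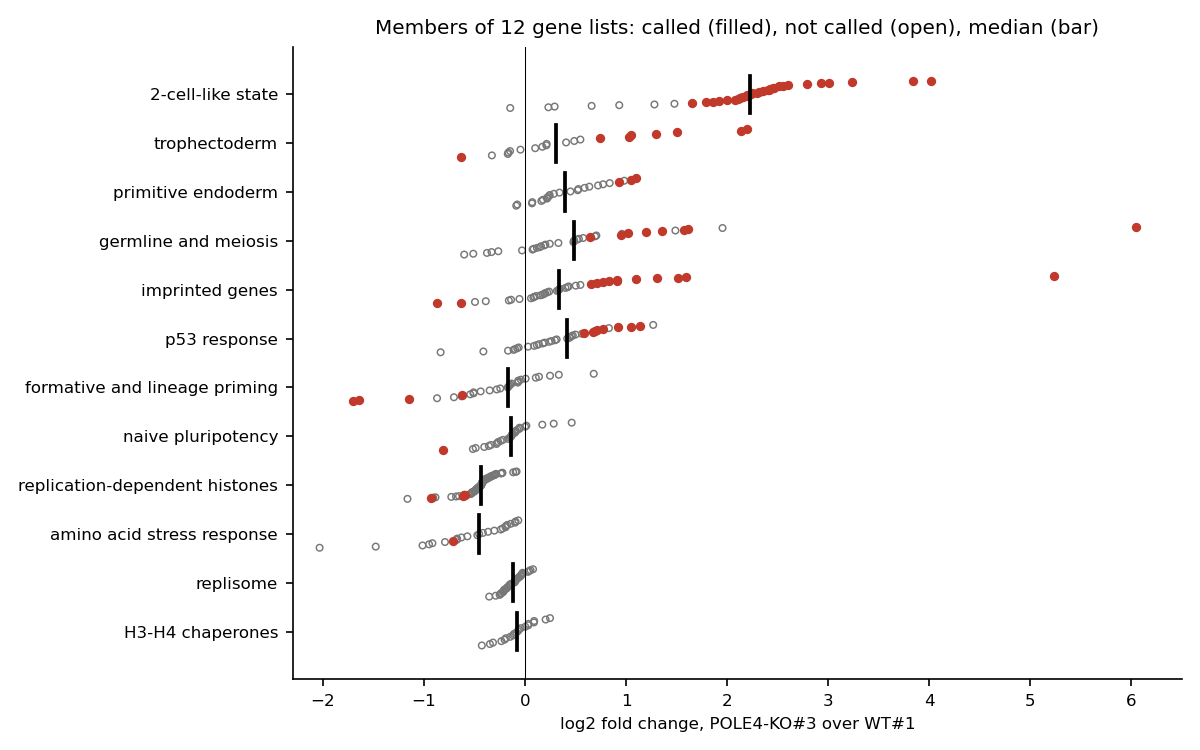
Log2 fold change of POLE4-KO#3 over WT#1 for the tested members of 12 lists, each point a gene, filled where called, with the list's median as a bar. The 2-cell-like list has its median at 2.23, all 70 histone genes and all 25 amino acid stress genes lie left of zero, and no replisome or chaperone gene is filled.

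To set these changes beside the differences between wild-type clones, 6 other WT clones were compared with other libraries of WT#1 (2 per clone, another batch and table), as ratios of mean CPM with 0.1 CPM added. Of the 431 genes called higher, 410 (95.1%) stood above every WT clone, against 30.3% of all tested genes, and of the 72 called lower 50 (69.4%) stood below every clone, against 30%. All 31 called 2-cell genes were above the WT clones. *Zscan4d* ranged from -2.12 to -0.04 over those clones on the log2 scale, and MERVL-int from -1.36 to 0.31. *H19* ranged from -3.79 to 2.56, and POLE4-KO#3 at 5.23 lay above that. *T*, *Sp5*, *Fgf8* and *Lef1* lay within the range of the WT clones (*T* from -6.37 to -0.07), as did *Miip*, *Grb10*, *Nnat* and *Plagl1*. *Nkx6-3* and *Samd9l* lay below it. The highest WT clone stood at -0.32 for *Sp5*, -0.50 for *Fgf8* and -0.10 for *Lef1*. For these genes and *T*, WT#1 was thus above all 6 other clones. Of the genes called higher, 8 of 11 imprinted, 5 of 8 germline and 2 of 3 primitive endoderm genes lay above every WT clone. *Stra8* and *Sox7* lay within the range. All 7 trophectoderm and all 8 p53 genes lay above it. 66 of the 70 called repeats were above every WT clone, as were 58.3% of all repeats, with the same limit as for genes.

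**Figure D5:**
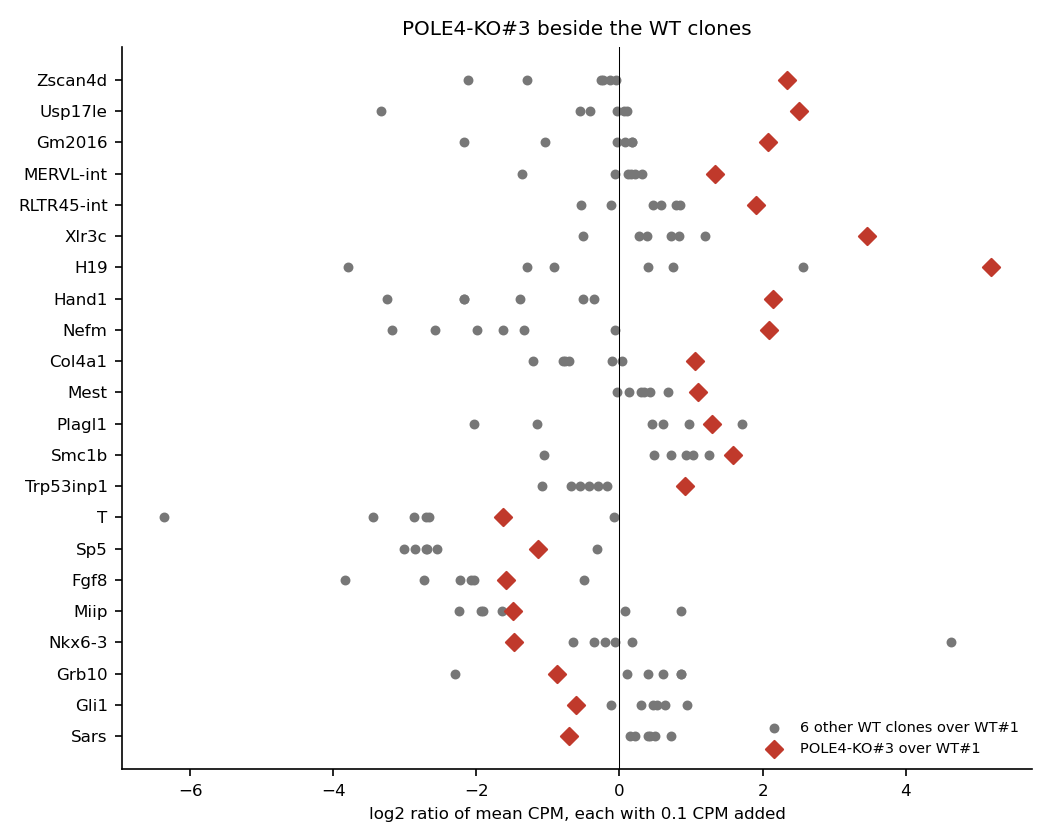
Log2 ratio of mean CPM (0.1 CPM added) over WT#1 for POLE4-KO#3 (diamonds) and for 6 other WT clones (grey points) in 22 genes and repeats. Diamonds of Zscan4d, Usp17le, MERVL-int, Xlr3c, H19 and Hand1 lie right of every grey point, and those of T, Sp5, Fgf8 and Miip lie among them.

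The mutant of the other recycling arm, MCM2-2A#2, was compared with WT#1 in libraries of its own experiment (4 cultures each, repeat runs summed). Of 415 genes called higher in POLE4-KO#3 and measured there, 56 were called higher (13.5%, against 1.69% of all genes) and 8 lower (1.93%, against 1.02%), with a median of 0.44. Of 71 called lower, 11 were called lower (15.5%) and 0 higher, with a median of -0.32. The 2-cell list had a median of 0.71 and 12 of 39 genes called higher in MCM2-2A#2, against 2.23 in POLE4-KO#3. Primitive endoderm had medians above zero in both, 0.77 with 13 of 24 called higher in MCM2-2A#2 and 0.39 with 3 in POLE4-KO#3. *Mest* (-1.39) and *Peg13* (-2.17) fell in MCM2-2A#2 and rose in POLE4-KO#3. *H19* rose by 1.25 there, and RLTR45-int by 1.24. Of 69 called repeats measured there 8 were called higher (11.6%, against 2.25% of all repeats). These values come from separately scaled tables, and differences between the mutants were not tested.

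POLE4-KO#3 was far from identical with its sister clones. Tested directly against the mean of POLE4-KO#1 and POLE4-KO#2, in which WT#1 does not enter, 1817 genes were higher (10.8%) and 398 lower (2.36%; 13.1% in all). Of the 431 genes called higher against WT#1, 269 were also called higher than the mean of the other knockout clones, which a low level in POLE4-KO#1 alone can bring about. *Pole4* itself was not called by this test (-0.36, edgeR quasi-likelihood test, adjusted p = 0.0682). The clones share their WT#1 libraries, so their changes are given side by side. The 2-cell list had a median of 2.23 in POLE4-KO#3, 1.78 in POLE4-KO#2 and -0.25 in POLE4-KO#1, and 26 of its 40 genes were higher in POLE4-KO#3 than in the mean of the other clones. *Zscan4d* averaged 11.7 CPM in POLE4-KO#3, 6.64 in POLE4-KO#2 and 1.63 in POLE4-KO#1 against 2.22 in WT#1. MERVL-int averaged 648, 695 and 204 CPM in that order, against 257 CPM in WT#1.

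*H19* averaged 158 CPM in POLE4-KO#3, 98.0 in POLE4-KO#2 and 2.20 in POLE4-KO#1, and *Xlr3c* 13.04, 4.06 and 0.27 CPM. The p53 list had 3 genes higher in POLE4-KO#3 than in the mean of the others, and its medians over WT#1 were 0.42, 0.25 and 0.25, and *Trp53inp1* was not called against the other clones (0.07, edgeR quasi-likelihood test, adjusted p = 0.612). Lineage priming genes were lower in the other clones, with medians of -0.43 and -1.32 against -0.17 in POLE4-KO#3, and 14 of 29 were higher in POLE4-KO#3 than in their mean. *Col1a1*, the fibroblast collagen, stood at 62.7, 65.8 and 53.2 CPM in POLE4-KO#3 and at 64.0, 59.3 and 62.6 CPM in WT#1, but averaged 1.06 and 3.72 CPM in POLE4-KO#1 and POLE4-KO#2 (difference 4.92). *Actc1*, cardiac actin (6.30), and *Ccdc80* (5.67) followed the same pattern without a call against WT#1. *Cfp* (-2.16), *Pga5* (-1.90), *Rpl10-ps6* (-1.84), *Pax6*, the neural and eye factor (-1.76), and *Fancd2os* (-1.70) were lower than in the other clones.

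Among repeats 4 were higher than the mean of the other knockout clones (0.463%) and 1 lower (0.116%; 0.579% in all). IAPEy-int (2.93), at 2.62 CPM, exceeded POLE4-KO#1 (0.0751 CPM) and POLE4-KO#2 (1.49 CPM). MERVL-int (0.78), RLTR45-int (0.70) and MT2_Mm (0.66) exceeded the mean of the logarithms through POLE4-KO#1 only, since RLTR45-int averaged 90.9 CPM against 149 CPM in POLE4-KO#2 and MT2_Mm 180 against 198 CPM. GSAT_MM was lower by 3.20 on the log2 scale, at 4.79 CPM against 36.4 CPM in POLE4-KO#1 and 52.3 CPM in POLE4-KO#2. With the replicate number as a block among the knockout libraries, 12 repeats were called in place of 5, and 2417 genes in place of 2215. The 6 WT clones also stood above WT#1 for GSAT_MM, by 0.71 to 2.19 on the log2 scale. Chromosome 14 had a median change over WT#1 of 0.131 in POLE4-KO#1 and -0.286 in POLE4-KO#2 against -0.006 in POLE4-KO#3.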

How the data were processed

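RNA-seq libraries of WT#1 and 3 POLE4-KO clones were analysed from the raw counts that the authors deposited, 1 row per gene and per repeat subfamily. Per the labels, reads were trimmed with Trimmomatic 0.39, aligned to mm10 with STAR 2.7.1a and counted with featureCounts. Strand setting and multimapping rules are not given in the sources used here. Symbols and coordinates come from GENCODE vM21 on GRCm38, sequences from RefSeq. Over the series, 7 columns could be tied to no sample and were not used.

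All 12 libraries entered 1 fit (edgeR 4.0.16, R 4.3.3; filterByExpr min.count 10, min.total.count 15; TMM from gene counts), with quasi-likelihood tests and Benjamini-Hochberg adjustment separately for genes and repeats. SE is the absolute change divided by the square root of F. A call needs an adjusted p below 0.01 and a log2 fold change beyond 0.58. The test was tried on simulated data. DESeq2 1.42.0, other scalings, filters, limits and left-out libraries were alternatives. Named by rule were the polymerase epsilon subunits; the 10 largest rises and 10 largest falls with separated libraries and at least 1 CPM in the higher group, without Gm or Rik names; up to 5 called members per list, or the 2 with the smallest p; 15 called and 5 fixed repeats; the 5 highest and 5 lowest genes against the other knockout clones; and called genes within 5 Mb of *Pole4*. Further list members, cluster neighbours and *Col1a1* were chosen after their values were seen. Some genes that met these rules are not reported here. The comparison, the members and the 25 lists were chosen with earlier results of these data known. The WT#1 column numbers do not match the labels' replicate numbers, so these columns were tied to the line only. Among the knockout clones all 9 same-numbered pairs correlated (r of 0.15 to 0.33 for deviations from the line means, against -0.20 to 0.0036 for 18 other pairs), so the numbers were taken to pair them.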

Additional observations from a re-analysis of the deposited data

Results flagged for a closer look

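The 43 named results below differed between POLE4-KO#3 and the mean of POLE4-KO#1 and POLE4-KO#2 by edgeR's quasi-likelihood test of the difference itself, and are given as log2 differences from that mean. Groups of 3 libraries were too small for a test of single outlying libraries. For 6 of them POLE4-KO#3 lay between the other clones, so that the difference rests on POLE4-KO#1: MERVL-int (0.78), RLTR45-int (0.70), MT2_Mm (0.66), *Gata3* (0.75) and *T* (1.8), which were lower than in POLE4-KO#2, and *Nkx6-2* (-0.64), which was higher than in POLE4-KO#2. Repeats and 2-cell genes above both clones were IAPEy-int (2.93), *Tdpoz3* (1.94) and *Usp17ld* (1.53). The X-linked Xlr genes differed by 5.37 (*Xlr5c*), 5.32 (*Xlr5b*), 4.61 (*Xlr4b*), 4.17 (*Xlr5a*), 3.63 (*Xlr3c*) and 3.37 (*Xlr4a*), *Ccr1l1* by 8.40, *H19* by 3.43 and *Mir675* by 3.63. *Ccr1l1* had no read in POLE4-KO#2, and *Xlr5b*, *Xlr5c*, *Xlr4b* and *Plac1* had none in POLE4-KO#1, so their fitted differences depend on the prior count and are no bound.

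Extraembryonic and germline genes above both clones were *Plac1* (3.76), *Hand1* (3.15), *Krt7* (2.32), *Esx1* (2.20), *Col4a2* (2.18), *Col4a1* (1.48), *Stra8* (1.73), *Gpat2* (1.71) and *Smc1b* (1.21). Other genes above both were *Kdm5d* (2.80), *Col5a2* (2.74), *Nefm* (2.47), *Fbln1* (0.78) and *Tap1* (0.66). Genes that had fallen against WT#1 but were still above both other clones were *Sp5* (1.86), *Gbp2* (1.8), *Fgf8* (1.64) and *Hist3h2ba* (1.15). Those below both other clones as well were *Nkx6-3* (-2.53), *AC166172.1* (-1.26), *Ciart* (-0.96), *Dppa3* (-0.96), *Sars* (-0.79), *Bnip3* (-0.74) and *Gli1* (-0.69). Some genes above or below both clones lay near POLE4-KO#2, so that most of their difference also comes from POLE4-KO#1. *Nkx6-3* averaged 0.66 CPM in POLE4-KO#3, 0.81 in POLE4-KO#2 and 18.1 in POLE4-KO#1. *Smc1b* averaged 16.3, 14.5 and 3.40 CPM in that order, and *Plac1* 0.85, 0.74 and 0 CPM.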

How the results depend on the processing

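For POLE4-KO#3 against WT#1, the 431 higher and 72 lower genes became, in sum, 860 with no limit on the fold change, 944 at an adjusted p below 0.05, 847 without a filter on counts and 99 when tested against the limit itself (glmTreat), and 317 to 461 when 1 library was left out. The 70 repeats became 185, 149 and 7 under the fold, p and glmTreat settings, 10 with scaling of their own and 16 to 84 without 1 library. DESeq2 called 600 genes, 485 of them shared. Against the other knockout clones the 2215 genes became 4171 with no fold limit and 870 with glmTreat. The 5 repeats became 9 and 2 under these, 11 at an adjusted p below 0.05, 14 without a filter, 11 with DESeq2, 13 with their own scaling and 4 to 11 without 1 library. The replicate block among the knockout libraries gave 12 repeats and 2417 genes. No paired analysis was run for POLE4-KO#3 against WT#1, because the WT#1 columns carry numbers that match no replicate number of the labels. In deviations from the line means, WT#1 libraries 6, 7 and 8 correlated with POLE4-KO#3 libraries 1, 2 and 3 at 0.092, 0.24 and 0.139. Other pairs of these lines lay between -0.168 and 0.0215. An effect of shared replicates on this comparison was not tested. With their own scaling MMERGLN-int (-0.057) and GSAT_MM (-0.18) changed sign against WT#1; the cause was not tested.

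The lineage priming median was -0.267 to -0.134 without 1 library, and the primitive endoderm median 0.27 with min.count 50. Among genes of at least 10 CPM, the largest median of the autosomes and X was 0.108 in size. That median was a fall, at -0.108 on chromosome X. Of the values of single named genes and repeats, 259 fell short of a call under an alternative and 6 gained one. Another 1503 had the same status as in the main fit, whether called or not called there. Depth limited genes below about 1 CPM, where a few reads decide a call.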

Other observations

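Several called genes belong to none of the lists and were chosen here after their values were seen. Rises included *Ptgs2*, the inducible cyclooxygenase, which averaged 3.91 CPM in WT#1 and 13.2 CPM in POLE4-KO#3 (log2 change 1.75), *Tek*, an angiopoietin receptor, 10.96 and 25.2 CPM (1.195), *Wnt7b* 13.8 and 29.7 CPM (1.11), *Egfr* 11.4 and 21.0 CPM (0.88), and the protease inhibitor gene *Serpine2* 17.0 and 37.4 CPM (1.13). On the X chromosome 31 of 596 tested genes were called higher, against 2.56% of all genes, and 11 of the 31 lay in the window of the Xlr genes. The others included *Rhox5*, a homeobox gene of placenta and testis (1.18), *Nrk* (1.56), *Usp26* (2.14) and *Efhc2* (1.77). *Rhox5* fell by 1.53 on the log2 scale in MCM2-2A#2. Falls included *Pttg1*, securin, which averaged 24.7 and 13.3 CPM (-0.90), *Cdkn1b*, a cyclin-dependent kinase inhibitor, 26.3 and 15.4 CPM (-0.78), and *Ska1*, of the kinetochore, 20.5 and 12.8 CPM (-0.68). *Igfbp3*, an IGF-binding protein, fell from 95.5 to 49.6 CPM (-0.95).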
